A study of Homo sapiens with 2 samples.

Results

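Genes of metal transport, metal buffering and iron storage were examined in HCT116, an established line of human colorectal carcinoma cells. The cells were given 1 µM CB-5083, an inhibitor of the p97 ATPase encoded by VCP, or its solvent DMSO, and polyadenylated RNA was sequenced after 8 h. With 1 library for each treatment, the differences have no replicate check, and no p-value is given. The set was taken from the deposited table by gene name: every SLC39A, SLC30A, SLC31A, SLC41A, SLC11A and SLC40A transporter row, the MT1 rows named by a single letter and MT2A, and MTF1, FTH1, FTL and TFRC. It holds 43 of 21115 genes, and the rule uses names and not values.

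Cells take up zinc through the ZIP proteins (SLC39A), which move metal into the cytosol, and remove it through the ZnT proteins (SLC30A), which move it out of the cell or into organelles. Free zinc in the cytosol is bound by metallothioneins, small cysteine-rich proteins whose genes, together with the exporter gene SLC30A1, are switched on by the zinc-sensing factor MTF1 through metal response elements in their promoters. Iron enters bound to transferrin through the receptor TFRC, crosses membranes through SLC11A2, is stored in ferritin (FTH1 and FTL) and leaves through ferroportin (SLC40A1). Iron regulatory proteins bind hairpins in the messenger RNAs of these genes and set their translation or stability.

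Levels are CPM, estimated counts relative to the library's total, in parts of 1000000, with TMM factors that set the bulk of genes equal between the libraries. Folds are given with a 95% exact interval that covers counting error only. Log2 ratios carry a pseudocount of 1 CPM, which understates the difference of low genes. Genes were called higher or lower where the log2 ratio was at least 1 in size, which is 2-fold, and the level was 5 CPM or more in at least 1 library. The libraries held 29273747 (DMSO) and 31997724 (CB-5083) estimated counts. The median log2 ratio of all measured genes was 0.035 with TMM and -0.27 by library totals, so both values are given where a named gene differs between them in direction or call. All 7 epithelial markers, among them EPCAM, KRT8 and CDH1, reached 5 CPM in at least 1 library (summed level 1162 CPM in the control and 1768 CPM under CB-5083). None of the 4 colon epithelial markers did, with CDX1 at 0 and CDX2 at 3.76 and 2.92 CPM. The 3 leukocyte markers in the table summed to at most 0.0607 CPM, and the 3 endothelial markers to 0.123 and 0.112 CPM. The 4 fibroblast markers summed to 2.52 and 3.62 CPM, mostly from COL1A1 at 2.52 and 3.48 CPM. In bulk RNA, fewer cells of a kind and less RNA per cell cannot be told apart, and the part of the higher epithelial sum in the differences was not tested.

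Of the 43 metal genes, 31 were measured, which means a mean of at least 1 CPM over both libraries, and 25 passed the filter of 5 CPM. With CB-5083, 1 of these 25 was higher, the importer SLC39A14, and 1 was lower, the importer SLC39A10. Among all 9543 genes past the filter, 7.22% were higher and 4.91% lower, so the shares of 1 in 25 are not above the background in either direction. The other 23 genes lay within 2-fold. The 31 measured genes had a median log2 ratio of -0.035, against 0.035 over all 11964 measured genes. By library totals 2 were lower, SLC39A10 and SLC39A8, against a background of 10.3%, and 1 was higher, against 3.86%. With no filter on low values 1 was higher and 2 were lower, the second being SLC40A1, against 3.56% and 3.09% of all 21115 genes. The 12 genes below 1 CPM were SLC39A2, SLC39A5, SLC39A12, SLC39A13, SLC30A2, SLC30A10, SLC11A1, MT1A, MT1F, MT1G, MT1H and MT1L. Of these, 6 had no count in either library, which allows up to 3 counts, or 0.091 CPM in the control and 0.106 CPM under CB-5083.

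**Figure D1:**
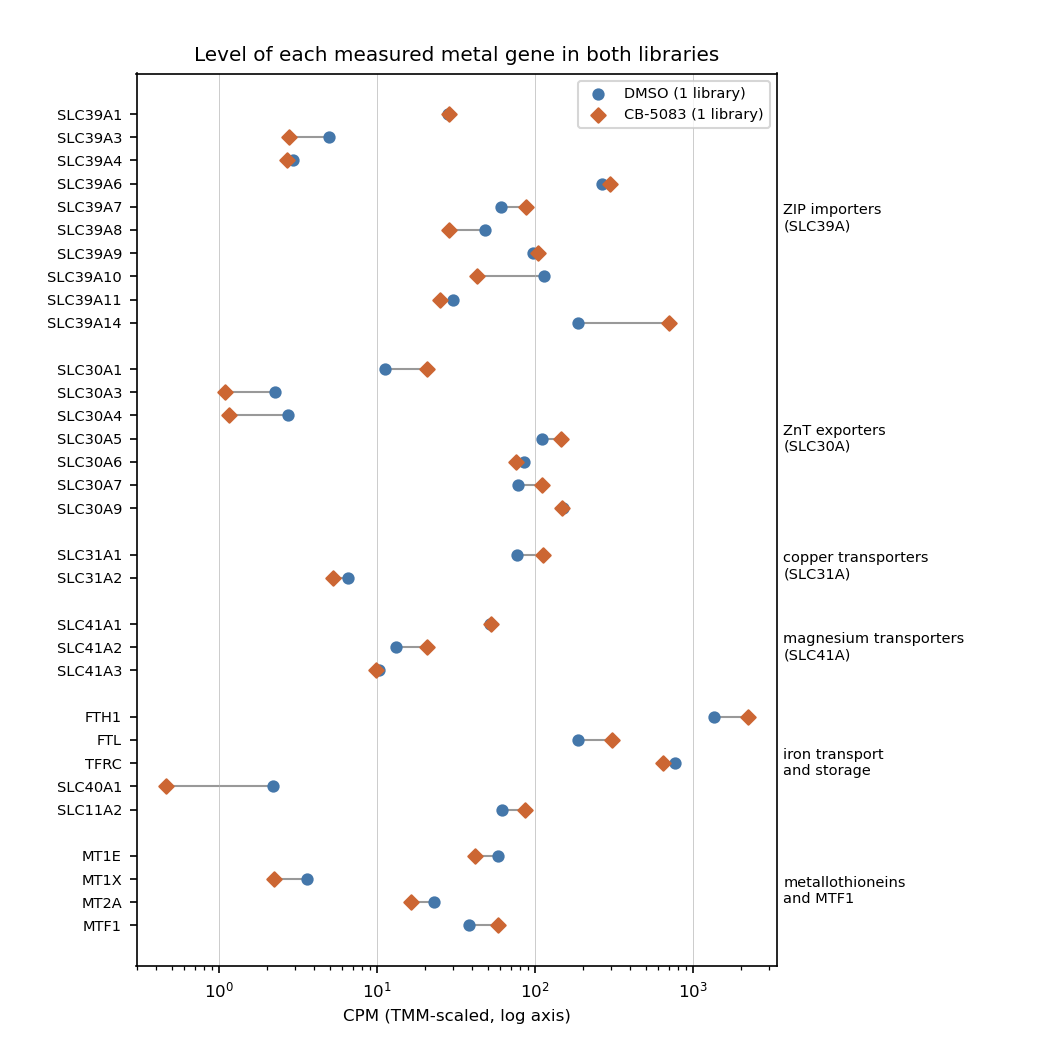
Level of the 31 measured metal genes in CPM (TMM-scaled, log axis), grouped by family, with DMSO as circles and CB-5083 as diamonds, 1 library each. The longest lines among genes above 5 CPM join the values of SLC39A14 (187 and 705 CPM) and SLC39A10 (113 and 42.5 CPM), in opposite directions.

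The zinc importers held both the highest and the lowest log2 ratio of the 25 metal genes past the filter. SLC39A14 (hg19 chromosome 8, 22224762 to 22291640), which carries zinc, manganese and iron not bound to transferrin, stood at 187 CPM in the DMSO library and at 705 CPM in the CB-5083 library. That is 3.76-fold higher (3.65 to 3.87). Its log2 ratio was 1.90 (1.56 under library totals; the authors' deposited table has 1.82), and 138 of 9543 genes had a higher one. SLC39A8, its closest relative in the family and a carrier of the same metals, was at 48.0 against 28.6 CPM, 1.68-fold lower (1.54 to 1.83). It lay within the threshold at a log2 ratio of -0.73 but past it by library totals at -1.06. The ratio of SLC39A14 to SLC39A8 counts, 1 of 7 such ratios computed for pairs picked after values were seen and which no scaling of the libraries alters, was 3.91 (3.70 to 4.13) with DMSO and 24.6 (22.96 to 26.5) with CB-5083.

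SLC39A10 (hg19 chromosome 2, 196521532 to 196602426), a zinc importer of the plasma membrane, stood at 113 CPM in the DMSO library and at 42.5 CPM in the CB-5083 library, 2.66-fold lower (2.49 to 2.84). Its log2 ratio was -1.39, library totals gave -1.73, the authors' deposited table has -1.501, and 184 of 9543 genes had a lower one. Its protein is known to pair with that of SLC39A6, which was at 266 against 295 CPM. The partner genes thus differed in their ratios. SLC39A6 had a ratio near 1, at 1.11-fold (1.08 to 1.14), whose log2 value turned from 0.15 to -0.19 by library totals. Between these partners, the ratio of SLC39A6 to SLC39A10 counts went from 2.35 (2.27 to 2.45) to 6.94 (6.54 to 7.38).

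Importers that act inside the cell lay within 2-fold. SLC39A7, which releases zinc from the endoplasmic reticulum (ER) and Golgi, was at 61.2 against 87.9 CPM, 1.44-fold higher (1.35 to 1.52). SLC39A9, a Golgi importer, was at 96.3 against 103 CPM, and its log2 ratio of 0.10 became -0.24 by library totals. SLC39A11 was at 30.1 against 25.1 CPM. SLC39A1, an importer of the plasma membrane, was at 28.1 against 28.4 CPM, equal within counting error on the TMM scale and at -0.32 in log2 by library totals. The remaining measured importers were under the filter. These were SLC39A3, at 4.98 against 2.74 CPM, and the intestinal importer SLC39A4, at 2.93 against 2.67 CPM. By library totals SLC39A3 passed the filter and was not called, at a log2 ratio of -0.94 against -0.67 with TMM. SLC39A13, an importer of the early secretory pathway, was below 1 CPM, with 31 and 27 counts.

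Per length, in CPM per kilobase of transcript, SLC39A6 was the first of the importers with DMSO at 102, ahead of SLC39A14 at 59.1, SLC39A9 at 35.4 and SLC39A7 at 26.8. With CB-5083 the first place belonged to SLC39A14 at 222, against 114 for SLC39A6, 38.5 for SLC39A7 and 38.0 for SLC39A9. SLC39A14 took 22.3% (21.8 to 22.8) of the family's estimated counts with DMSO and 53.3% (52.8 to 53.8) with CB-5083. SLC39A10 took 13.5% (13.1 to 13.9) and 3.22% (3.04 to 3.40). The summed level of the family was 839 against 1322 CPM, and without SLC39A14 it was 652 against 618 CPM. Per length the sum without this 1 gene was 226 against 230.1 CPM per kilobase, so its direction depends on the scale.

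**Figure D2:**
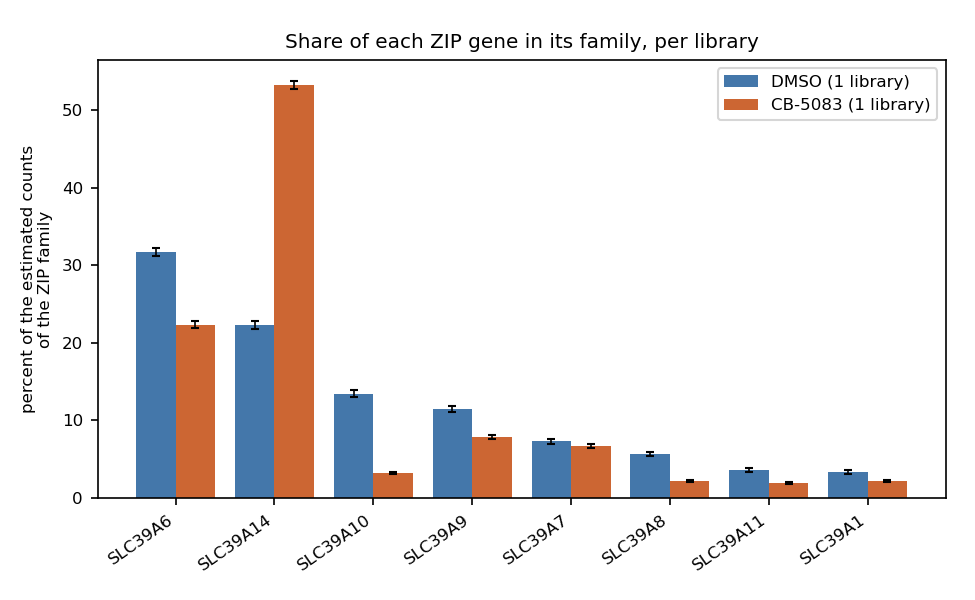
Share of each ZIP gene in the estimated counts of its family (percent, bars from 0), for the 8 genes with at least 2% in either library, 1 library per treatment, with error bars for the 95% exact counting interval. SLC39A14 takes 22.3% of the family with DMSO and 53.3% with CB-5083, while the share of each of the other 7 genes is smaller with CB-5083. A larger share of 1 gene lowers the other shares, and SLC39A7 has a smaller share at a higher level (61.2 and 87.9 CPM).

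No zinc exporter passed 2-fold among the 5 past the filter. SLC30A1, the main exporter of the plasma membrane and a target of MTF1, came nearest, at 11.2 CPM in the solvent control and 20.7 CPM under CB-5083. That is 1.84-fold higher (1.62 to 2.10). Its log2 ratio was 0.83, and library totals gave 0.51. The pair that fills the early secretory pathway with zinc split: SLC30A5 was at 111 against 145 CPM, 1.301-fold higher (1.24 to 1.36), and its partner SLC30A6 at 84.7 against 75.6 CPM, 1.12-fold lower (1.06 to 1.19). SLC30A7, an exporter into the Golgi, was at 77.6 against 111 CPM, 1.43-fold higher (1.35 to 1.504). SLC30A9 was at 151 against 147 CPM, equal within counting error on the TMM scale.

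The 2 other measured exporters were scarce. SLC30A3, the exporter of synaptic vesicles, was at 2.25 against 1.09 CPM, from 74 and 31 counts, 2.06-fold lower (1.34 to 3.24). SLC30A4, an exporter of lysosomes and other vesicles, was at 2.73 against 1.15 CPM, 2.37-fold lower (1.56 to 3.62). Both are under the filter of 5 CPM and were not called. SLC30A10, a manganese exporter, held 4 counts in each library. Per length, SLC30A5 stood first in both libraries, at 52.4 and 68.2 CPM per kilobase, and SLC30A1 well below it at 2.05 and 3.78.

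**Figure D3:**
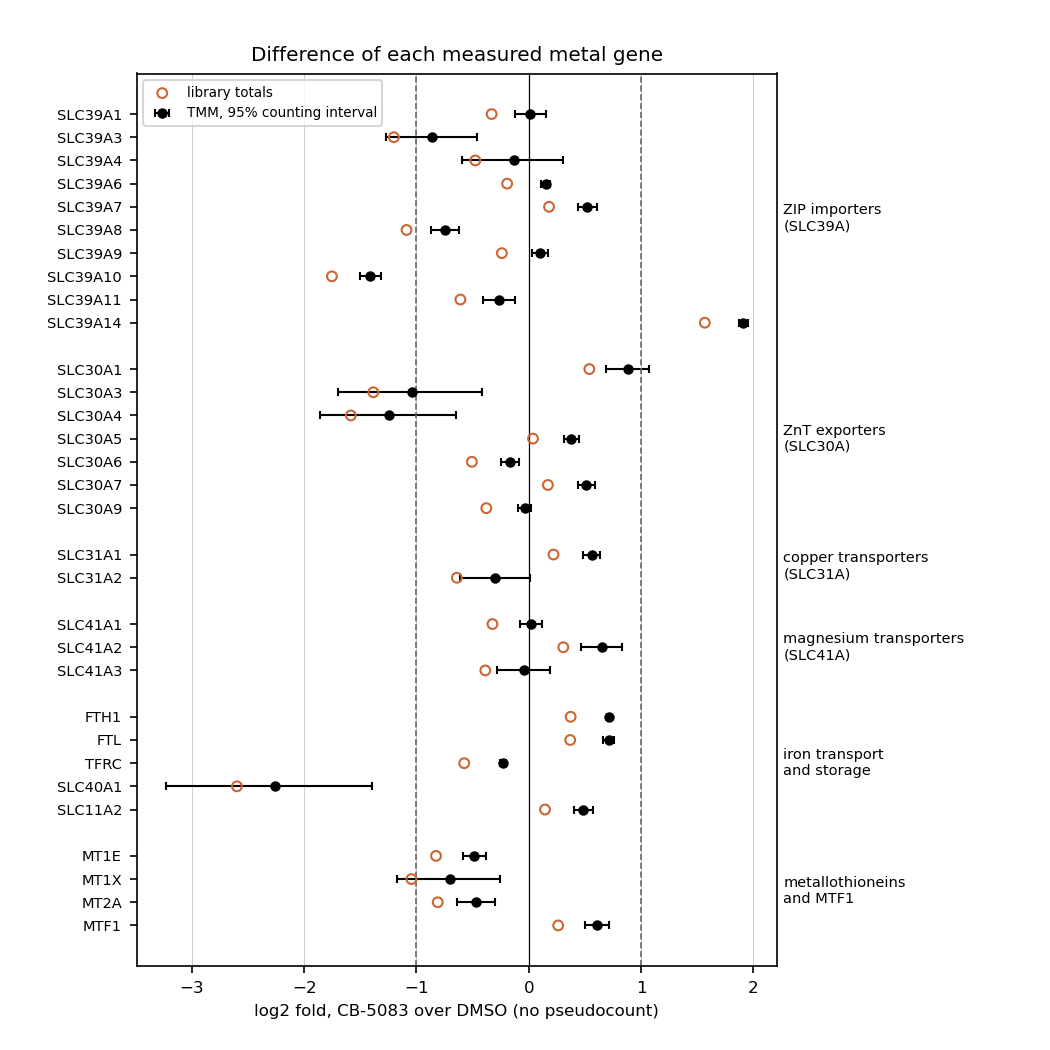
Log2 fold of CB-5083 over DMSO for the 31 measured metal genes (no pseudocount), with filled points and bars for TMM scaling and its 95% counting interval and open points for library totals; dashed lines mark 2-fold. SLC39A14 is the only point past 2-fold on the higher side under either scaling, and SLC40A1 lies farthest on the lower side, at 2.18 against 0.457 CPM.

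Copper and magnesium transporters lay within 2-fold. SLC31A1, the high-affinity copper importer CTR1, was at 76.2 against 113 CPM, 1.48-fold higher (1.40 to 1.56). SLC31A2, which is related to it and acts on intracellular copper, was at 6.49 against 5.28 CPM, 1.23-fold lower (0.994 to 1.53). The counts of SLC31A1 over those of SLC31A2 were 11.7 (10.2 to 13.6) with DMSO and 21.3 (18.1 to 25.3) with CB-5083. SLC31A1 overlaps FKBP15 in the files' coordinates, which was at 18.1 and 26.2 CPM, and the sources used here do not say whether reads were assigned by strand. The row BC062762, at 43.0 and 39.7 CPM, likewise lies within the span of SLC39A9. Among the magnesium transporters, SLC41A2 was at 13.2 against 20.8 CPM, 1.57-fold higher (1.38 to 1.78). SLC41A1, a sodium-dependent magnesium exporter, was at 52.0 against 52.7 CPM, and SLC41A3 at 10.2 against 9.89 CPM. Both were equal within counting error on the TMM scale and had log2 ratios of -0.32 and -0.35 by library totals.

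The iron genes are shown with their hairpins because the element lies at the 5′ end in storage and export genes and at the 3′ end in uptake genes. A script searched the untranslated regions of protein-coding transcripts in GENCODE release 29 (GRCh38) for a C, any 5 bases and the loop CAGTGN, on the transcript strand. The bases on both sides of the 6-base loop had to pair without a gap over at least 4 of 5 positions counted from the loop, with G to T pairs allowed. The minimum of 4 was set because the known SLC11A2 element has an imperfect stem; asking for all 5 pairs would drop 2 genes, SLC11A2 and SLC39A8. Of 19028 genes with a 5′ untranslated region 0.441% held such a match, and of 19133 with a 3′ untranslated region 1.69%. Capitals mark the unpaired C and the loop, and each line gives 30 bases, 5′ to 3′. A match is a description of the letters and not a test of binding.
The storage and export genes held it in the 5′ untranslated region, 1 match each.
FTH1, chr11:61967573-61967602, minus strand: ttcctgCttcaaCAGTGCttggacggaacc
FTL, chr19:48965335-48965364, plus strand: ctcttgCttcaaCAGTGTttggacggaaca
SLC40A1, chr2:189580660-189580689, minus strand: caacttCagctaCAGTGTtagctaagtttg
The uptake genes held it in the 3′ untranslated region, TFRC with 4 matches.
TFRC, chr3:196050978-196051007, minus strand: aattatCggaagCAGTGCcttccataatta
TFRC, chr3:196050574-196050603, minus strand: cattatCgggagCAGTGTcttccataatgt
TFRC, chr3:196050509-196050538, minus strand: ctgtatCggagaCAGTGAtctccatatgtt
TFRC, chr3:196050462-196050491, minus strand: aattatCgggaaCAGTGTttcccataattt
SLC11A2, chr12:50988268-50988297, minus strand: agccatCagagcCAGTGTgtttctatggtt
Of the other measured genes kept for this listing, SLC39A8 and SLC39A9 also had 1 match each in the 3′ untranslated region. SLC39A14 and SLC39A4 were left out of the listing but not of the shares over all genes. Whether they hold a match is therefore not shown.
SLC39A8, chr4:102253347-102253376, minus strand: cagcacCttcaaCAGTGAttggttagaggt
SLC39A9, chr14:69462224-69462253, plus strand: caatagCtggaaCAGTGAttttaaatgtcc

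Both ferritin genes were higher with CB-5083 by almost the same factor, short of the threshold. FTH1, the heavy chain that oxidises iron, was at 1352 against 2219 CPM, 1.64-fold higher (1.62 to 1.66). FTL, the light chain, was at 188 against 307 CPM, 1.64-fold higher (1.58 to 1.69). Their log2 ratios were 0.71 each, 0.37 each by library totals and 0.62 each in the authors' deposited table. The ratio of FTH1 to FTL counts was 7.21 (7.02 to 7.40) with DMSO and 7.23 (7.07 to 7.39) with CB-5083. Both genes have processed pseudogenes of near-identical sequence, so the authors' counting could have split their reads, and FTH1 overlaps BEST1 (0.0607 and 1.37 CPM). The estimated counts of FTL were whole within 0.02 in both libraries, and those of FTH1 were not. Whether reads were split was not tested. On chromosome 11, FTH1 spans 61731757 to 61735132 in hg19, and FTL spans 49468566 to 49470136 on chromosome 19.

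TFRC, the receptor for transferrin, was at 762 against 648 CPM, 1.17-fold lower (1.15 to 1.197), on the log2 scale -0.23 (-0.57 by library totals). Receptor and storage genes thus differed in opposite directions. The ratio of TFRC to FTH1 counts was 0.563 (0.555 to 0.572) with DMSO and 0.292 (0.287 to 0.297) with CB-5083, which is 0.519 of its value with DMSO. SLC11A2, the iron carrier DMT1 that also has the hairpin in its 3′ untranslated region, was at 61.2 against 85.8 CPM, 1.40-fold higher (1.32 to 1.49). This value is for the whole gene, and whether every transcript of SLC11A2 holds the hairpin was not examined. Of the 2 uptake genes, 1 was thus higher and 1 lower. Of the genes with the hairpin at the 5′ end, FTH1 and FTL were higher. The export gene SLC40A1, under the filter with 72 and 13 counts, was lower.

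SLC40A1, the iron exporter ferroportin, had the lowest ratio of the measured genes without the pseudocount. It had 72 counts (2.18 CPM) in the control and 13 counts (0.457 CPM) under CB-5083, 4.78-fold lower (2.62 to 9.40). Its log2 ratio with the pseudocount was -1.13, and -2.35 in the authors' deposited table. The gene is under the filter of 5 CPM and was not called. SLC11A1, the carrier known from macrophage phagosomes, held 2 and 7.98 estimated counts, and no direction is read from them. Per length, FTH1 led the iron genes at 1100 and 1806 CPM per kilobase, before FTL at 214 and 350 and TFRC at 150 and 128.

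The 3 measured metallothionein genes were all lower with CB-5083, and none reached 2-fold. MT1E was at 57.9 against 41.4 CPM, 1.40-fold lower (1.299 to 1.505). MT2A was at 22.7 against 16.4 CPM, 1.38-fold lower (1.23 to 1.56). MT1X, under the filter, was at 3.61 against 2.22 CPM, 1.63-fold lower (1.19 to 2.25). The ratio of MT1E to MT2A counts was 2.55 (2.34 to 2.78) and 2.52 (2.26 to 2.81), within counting error of each other. MT1F held 23 and 13 counts, and MT1A, MT1G, MT1H and MT1L none. All 8 rows lie on chromosome 16 (hg19), MT2A from 56642478 to 56643409, MT1E from 56659585 to 56661024 and MT1X from 56716382 to 56718108. Over their 183 coding bases, MT1E, MT1F, MT1X and MT2A were 88.5% to 92.3% identical in pairs, so reads could have been shared between copies and single values are uncertain. The estimated counts of MT1E and MT1F were whole within 0.02 in both libraries. Those of MT2A (749.05 and 466.96) and MT1X (118.95 and 63.04) were not. How far reads were shared was not tested.

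MTF1, the factor that activates these genes and SLC30A1 and is known to repress SLC39A10, was at 38.1 against 57.9 CPM, 1.52-fold higher (1.41 to 1.64). Its log2 ratio was 0.59, or 0.26 by library totals. The genes that MTF1 is known to activate did not share a direction: SLC30A1 was higher and MT1E, MT2A and MT1X were lower. The ratio of SLC30A1 to MT2A counts went from 0.494 (0.435 to 0.560) with DMSO to 1.26 (1.11 to 1.42) with CB-5083.

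The promoters of 4 genes around MTF1 are shown because SLC30A1 and the metallothioneins differed in opposite directions and SLC39A10 was called lower. They are RefSeq sequences (GRCh38.p14), the 250 bases before a transcription start. Capitals mark the core of the metal response element, TGCACNC or TGCGCNC, on either strand.
MT2A, chr16:56608334-56608583, plus strand: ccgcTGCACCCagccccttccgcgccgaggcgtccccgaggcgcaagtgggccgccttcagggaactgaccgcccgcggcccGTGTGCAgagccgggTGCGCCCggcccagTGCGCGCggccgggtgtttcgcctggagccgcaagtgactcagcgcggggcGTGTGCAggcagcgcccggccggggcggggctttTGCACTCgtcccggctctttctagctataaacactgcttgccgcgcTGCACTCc
MT1X, chr16:56682220-56682469, plus strand: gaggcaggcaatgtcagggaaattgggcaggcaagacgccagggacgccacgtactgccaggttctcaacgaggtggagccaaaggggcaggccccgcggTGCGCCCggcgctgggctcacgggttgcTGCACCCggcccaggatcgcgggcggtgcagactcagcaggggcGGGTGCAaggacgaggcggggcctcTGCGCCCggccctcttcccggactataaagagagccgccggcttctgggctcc
SLC30A1, chr1:211579162-211579411, minus strand: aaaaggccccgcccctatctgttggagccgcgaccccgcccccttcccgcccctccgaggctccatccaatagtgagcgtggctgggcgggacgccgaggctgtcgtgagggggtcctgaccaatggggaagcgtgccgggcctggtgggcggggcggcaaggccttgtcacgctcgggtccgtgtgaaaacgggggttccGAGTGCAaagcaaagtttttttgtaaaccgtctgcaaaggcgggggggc
SLC39A10 start 1, chr2:195656708-195656957, plus strand: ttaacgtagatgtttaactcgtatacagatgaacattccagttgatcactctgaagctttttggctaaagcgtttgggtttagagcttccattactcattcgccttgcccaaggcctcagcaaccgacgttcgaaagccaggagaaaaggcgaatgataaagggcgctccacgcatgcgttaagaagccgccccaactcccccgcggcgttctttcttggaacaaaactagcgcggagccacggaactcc
SLC39A10 start 2, chr2:195656976-195657225, plus strand: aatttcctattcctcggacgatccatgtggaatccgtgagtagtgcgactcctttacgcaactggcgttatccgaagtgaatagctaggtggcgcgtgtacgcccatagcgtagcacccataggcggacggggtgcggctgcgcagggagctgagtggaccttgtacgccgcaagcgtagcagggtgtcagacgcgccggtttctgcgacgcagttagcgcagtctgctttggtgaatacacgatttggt
The windows held 7 core matches for MT2A, 4 for MT1X, 1 for SLC30A1 and none for SLC39A10. Bases after the transcription start were not searched, so a match there would be missed.

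Of 35116 promoter windows in the RefSeq table, 24.8% held at least 1 core match and 1.58% at least 3. Chromosome 8 was left out for the metal genes, here and in the listing of iron hairpins, but not for the shares over all windows and genes. Of the 31 measured genes 26 had a window among those used, 37 windows in all, some of which overlap. Counted by gene, 12 of these 26 had a match, against 28.5% of all 27305 genes. They were MT1X, MT2A, SLC30A1, SLC30A3, SLC30A4, SLC30A6, SLC39A1, SLC39A3, SLC39A6, SLC39A8, SLC40A1 and TFRC. TFRC had 3 matches, of which 2 overlap.

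Other motifs were rarer in the 37 windows. The antioxidant response element TGACNNNGC matched in MT1X, MT2A, SLC30A1, SLC30A3, SLC30A5, SLC30A9, SLC39A1 and SLC39A7, 8 of 26 genes, against 13.2% of all genes. The ER stress elements (CCAAT, 9 bases, CCACG, and ATTGG, 1 base, CCACG) and TGATGNAA, an element bound by ATF4 with its partners, had no match, against 0.0916%, 0.0659% and 3.89% of all genes. At shares this low, the lack of a match in 26 genes says little about them. Both strands were searched for each. SLC39A14, SLC31A2, FTH1, MT1E and SLC39A4 were not among the windows used here.

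**Figure D4:**
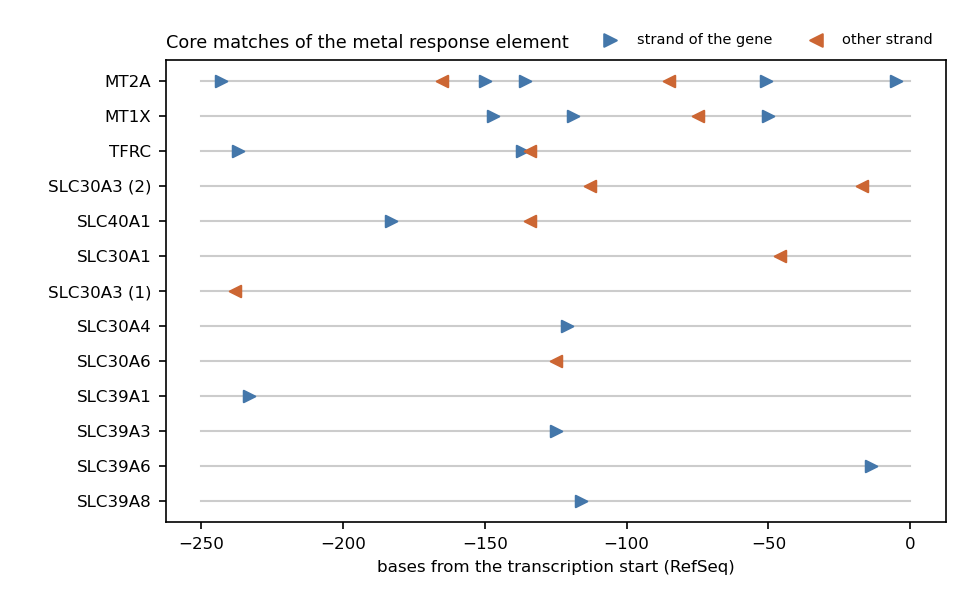
Positions of metal response element core matches in the 250 bases before the transcription start (x axis, bases) for the 13 windows of measured metal genes that hold one, with the pointer giving the strand. MT2A has 7 matches and MT1X 4, and SLC30A1 has 1.

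Other genes of metal handling were read from 4 lists. They hold 81 measured genes, with a median log2 ratio of -0.098, and 74 of these passed the filter of 5 CPM. Of the 74, 4 were higher (5.41%, background 7.22%) and 6 lower (8.11%, background 4.91%). By library totals 2 were higher (2.70%, background 3.86%) and 11 lower (14.9%, background 10.3%). The iron list, of 18 measured genes, gave 1 higher and 3 lower, and by library totals also STEAP3, an endosomal ferric reductase (22.8 against 12.3 CPM). LCN2, which binds iron-carrying siderophores, was at 3.16 against 20.1 CPM, 6.37-fold higher (5.16 to 7.92). SLC46A1, a folate carrier that also takes up haem, was at 15.4 against 4.19 CPM, 3.69-fold lower (3.02 to 4.54). HFE, which binds the transferrin receptor, was at 8.41 against 2.89 CPM, 2.91-fold lower (2.27 to 3.77). CYBRD1, a ferric reductase, was at 47.6 against 21.6 CPM, 2.21-fold lower (2.01 to 2.43). ATP13A2, a lysosomal ATPase, was under the filter at 3.64 against 0.668 CPM, from 120 and 19 counts, 5.45-fold lower (3.34 to 9.36), and was not called.

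The genes of the proteins that bind the iron hairpins lay near a ratio of 1. ACO1 and IREB2, which encode the iron regulatory proteins, were at 70.2 against 70.6 CPM and 151 against 147 CPM. The log2 ratio of ACO1 was 0.0088, and -0.33 by library totals. FBXL5, whose product has the second of them degraded when iron is plentiful, was 1.51-fold higher (1.41 to 1.62), and NCOA4, the receptor that delivers ferritin to autophagy, 1.38-fold higher (1.33 to 1.43). PCBP2, an iron chaperone and the most expressed gene of the list, was higher, at 454 against 683 CPM. PCBP1, of the same list, differed in the opposite direction, at 196 against 150 CPM (log2 ratio -0.38).

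Of 33 measured haem and iron-sulfur genes 30 passed the filter. Of these, 2 were higher (6.67%, background 7.22%) and 2 lower (6.67%, background 4.91%). By library totals none was higher (background 3.86%) and 5 were lower (16.7%, background 10.3%), with ABCB6, CIAO1 and FLVCR1 added. The log2 ratios of these added genes were -0.91, -0.77 and -0.68, and -1.20, -1.11 and -1.01 by library totals. The first enzyme of haem synthesis and 2 later ones differed in opposite directions. ALAS1, the rate-limiting enzyme, was at 34.1 against 77.2 CPM, 2.26-fold higher (2.11 to 2.43). CPOX, a mitochondrial enzyme of the pathway and the most expressed gene of the list, was at 633 against 220 CPM, 2.88-fold lower (2.80 to 2.96). ALAD, the enzyme after ALAS1, was at 12.6 against 4.82 CPM, 2.62-fold lower (2.15 to 3.20). HMOX1, which degrades haem, was higher at 2.48-fold (2.07 to 2.99). The log2 ratios of ALAS1 and HMOX1 were 1.16 and 1.17, and 0.82 and 0.86 by library totals.

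None of 13 measured copper genes, 12 of them past the filter, passed 2-fold (backgrounds 7.22% higher and 4.91% lower). SOD1, the most expressed, was at 327 against 340 CPM (log2 ratio 0.056, and -0.28 by library totals). ATP7A and ATP7B, the copper pumps of the secretory pathway, were 1.27-fold (1.10 to 1.46) and 1.52-fold (1.198 to 1.94) lower. Of 17 measured magnesium and manganese genes 15 passed the filter, with 1 higher (6.67%, background 7.22%) and 1 lower (6.67%, background 4.91%). By library totals 1 was higher (6.67%, background 3.86%) and 2 were lower (13.3%, background 10.3%). MAGT1, a subunit of oligosaccharyltransferase that has also been described as a magnesium transporter, was at 105 against 462 CPM, 4.38-fold higher (4.22 to 4.55). CNNM3, of a family linked to magnesium export, was at 26.7 against 11.5 CPM, 2.33-fold lower (2.05 to 2.65). TMEM165, a Golgi protein of manganese supply, was 1.87-fold lower (1.75 to 1.99), and library totals put it past the threshold, at a log2 ratio of -1.22.

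**Figure D5:**
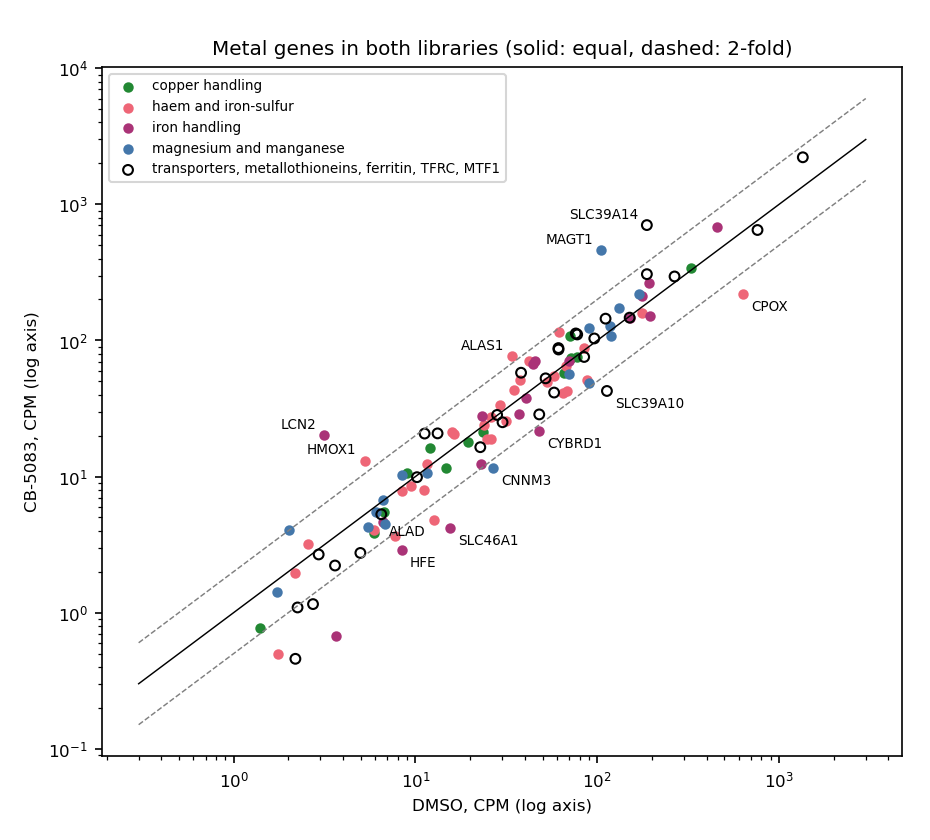
CPM with DMSO (x) against CPM with CB-5083 (y), both on log axes, for the 31 measured metal genes (open circles) and the 81 measured genes of the other metal lists (filled, by list), 1 library per treatment; the solid line marks equal values and the dashed lines 2-fold. SLC39A14, MAGT1 and LCN2 stand above the upper dashed line, and SLC39A10, CPOX and CYBRD1 below the lower one.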

How the data were processed

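Per the submitters' processing notes the values came from RSEM 1.2.0 on hg19. Aligner and annotation: not given in the sources used here. Both of the authors' deposited columns hold a signal per gene. From the values, these are estimated counts with each library brought to 1 common upper quartile (percentile 75 at 999.7 and 999.9). Dividing by the commonest low step (1.079 and 1.175) gave estimated counts, 77.1% and 78.0% of those up to 5 whole within 0.02. The design allowed for this. The authors' deposited log2 ratio is log2 of their 2 values, with no pseudocount.

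Of 21116 rows 1 held no value. TMM factors (trims of 30% on ratios and 5% on means) were 1.126 and 0.888. Intervals are Clopper-Pearson at 95% and, like the floor of 3 counts, cover counting error only. Lengths for CPM per kilobase are means of GENCODE release 29 transcripts matched by RefSeq accession (30 of 31 measured genes). Positions of genes are hg19 and of sequences GRCh38. Of 97 list symbols 3 were not matched.

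The members and lists were chosen with earlier results of these data known. Every measured member is named, as are list genes called under TMM and the most expressed of each list. The iron hairpins, the 5 motifs and the remaining list genes were chosen after values were seen. So were the promoters of MT1X and MT2A; that of MTF1 was first to be printed too and was dropped once it showed no core match, and it remains in the counts. Coding identity uses the transcripts matched to the table's RefSeq accessions, after choosing by longest and by shortest coding sequence had paired unlike isoforms. The scripts were tested on simulated data with counting error only, over 21115 genes, and all 100 genes altered 4-fold and 0 of 100 altered 1.5-fold were called. The work used Biopython 1.88, matplotlib 3.10.9, scipy 1.17.1, pandas 2.3.3, numpy 2.4.6 and Python 3.11.15. Scaling, pseudocount, filter, threshold and membership were varied 1 at a time, except that the alternative with the authors' scaling also has no pseudocount.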

Additional observations from a re-analysis of the deposited data

How the results depend on the processing

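SLC39A14 was called higher and SLC39A10 lower under all 8 alternatives to scaling, pseudocount, filter and threshold. The count of lower genes was 2 by library totals (SLC39A8 added) and 2 with no filter (SLC40A1 added, background 3.09%). At a 1.5-fold threshold 6 were higher and 2 lower, against backgrounds of 17.4% and 12.5%. The median log2 ratio of -0.035 was -0.35 by library totals, and turned to 0.10 over members of at least 5 CPM, 0.0069 over every member above 0 and 0.015 without the metallothioneins. A shift of the median was judged against the members' median counting half-width, 0.106, a choice made here, and the authors' scaling with no pseudocount, 2 choices altered together, gave a median (-0.13) within it. Under the 5 alternatives to each log2 ratio, 11 of 31 measured genes stayed above 0, 16 below, and 4 turned sign: SLC39A1, SLC39A6, SLC39A9 and SLC41A1. No paired analysis was possible because each treatment was 1 library, and for the same reason no replicate could be left out. Depth limits the genes under 5 CPM, such as SLC40A1 with 72 and 13 counts.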
